A study of Arabidopsis thaliana with 18 samples.

Results

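Floral integrators and meristem identity genes are the transcription factors and mobile signals that turn inputs from day length, cold and age into the switch to flowering. The 10 genes described here are FT, TSF, SOC1, AGL24, SVP, FUL, LFY, AP1, CAL and SEP3. They were taken by their gene identifiers from the 33602 genes of the deposited count table. The rule itself uses no measured values, but the members were chosen with earlier results of these data known. Of the 10, 7 passed the filter on low counts and were among the 18906 genes tested. TSF, LFY and CAL did not pass it and are given below as counts.

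The samples were whole seedlings of Arabidopsis thaliana, 14 days old, raised at 22 °C in long days (16 h light, 8 h dark), and their mRNA was sequenced. There were 6 genotypes with 3 libraries each, all in the Col-0 ecotype. Col-0 is the wild type, hta9hta11 carries the alleles hta9-1 and hta11-2 in histone H2A.Z genes, and arp6 carries arp6-1 in a subunit of the SWR1 complex. The line atchz1ab, which carries mutations in the AtChz1 genes, was studied alone, as atchz1ab hta9hta11 and as atchz1ab arp6. AtChz1 is named after the yeast histone chaperone Chz1, which binds H2A.Z with H2B, and SWR1 is the complex that places H2A.Z into nucleosomes. The 5 comparisons with the wild type ask how loss of each factor moves these genes, and the combined lines ask whether adding atchz1ab to a line moves them further.

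FT protein is made in leaf veins under long days and moves to the shoot apex, where it acts with the bZIP protein FD to switch on SOC1, FUL and AP1. FLC and SVP hold FT and SOC1 back, and SOC1 with AGL24 switches on LFY, which together with AP1 and CAL gives the new meristems their floral identity. SEP3 then joins other MADS-domain proteins in complexes that specify floral organs. Whole seedlings would mix leaves, roots and apex, but the root markers CASP1, MYB36, EXPA7 and COBL9 were nearly absent, as given below. The share of root tissue in the libraries was not tested. A change in level can come from fewer or more cells of a type or from less or more RNA per cell. These cannot be told apart here.

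Library totals ran from 7163359 to 10744318 counts. The mutated genes were low where the labels place their alleles. HTA9 stood at 93.3 ± 5.85 CPM (read counts relative to the TMM-scaled library size, mean ± SD, n = 3) in Col-0 and at 42.7 in hta9hta11, so that this allele left part of its transcript. HTA11 stood at 19.5 ± 1.64 CPM in Col-0 and at 0.832 in hta9hta11, and ARP6 had 714 counts in Col-0, 0 in arp6 and 1 in atchz1ab arp6. Transcripts of AtChz1 were not analysed here. Whether the 3 replicates of a genotype came from separate plants or extractions is not stated in the labels. The p-values therefore reflect only how these libraries scatter, and that scatter may be technical.

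H2A.Z is known to sit at nucleosomes around gene starts. The 250 bases before the annotated start, which leave out the bases after it, are shown for SOC1, FUL and SEP3. These genes rose in both lines that carry arp6, as did FT and AP1, whose windows are not shown. Capitals mark matches on either strand to CACGTG (the G-box core) or to TATAAA or to GAGAGA, and the bracket gives the strand of the gene. The data measure RNA, not H2A.Z or binding at these windows.
SOC1, TAIR10.1 chr2:18811126-18811375 (-): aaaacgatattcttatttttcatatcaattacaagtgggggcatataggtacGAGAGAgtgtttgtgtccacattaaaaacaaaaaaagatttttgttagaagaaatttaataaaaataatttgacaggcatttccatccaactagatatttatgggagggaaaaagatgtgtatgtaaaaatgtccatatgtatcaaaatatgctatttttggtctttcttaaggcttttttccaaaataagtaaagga
FUL, TAIR10.1 chr5:24506270-24506519 (-): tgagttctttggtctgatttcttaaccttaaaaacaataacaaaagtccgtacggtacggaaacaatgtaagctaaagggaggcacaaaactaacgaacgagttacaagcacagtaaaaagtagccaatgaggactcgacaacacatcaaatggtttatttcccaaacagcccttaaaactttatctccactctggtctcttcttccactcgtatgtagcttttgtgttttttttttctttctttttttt
SEP3, TAIR10.1 chr1:8596124-8596373 (-): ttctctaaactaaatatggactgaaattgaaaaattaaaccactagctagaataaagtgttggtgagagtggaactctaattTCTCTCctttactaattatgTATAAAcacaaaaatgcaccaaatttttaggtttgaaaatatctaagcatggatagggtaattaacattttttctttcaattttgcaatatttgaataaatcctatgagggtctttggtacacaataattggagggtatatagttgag
None of the 10 members' windows held CACGTG or an exact match to CCWWWWWWGG, where W is A or T. That pattern is the consensus CArG box that MADS-domain proteins bind. Variants of the CArG box were not searched for, so the windows may hold them. Among 27443 gene windows of the same length, 2.52% held a CArG box, 6.49% held CACGTG, 47.3% held TATAAA and 20.6% held GAGAGA. SOC1 had GAGAGA 198 bases before its start, and SEP3 had TATAAA at 148 and GAGAGA on the other strand at 168. FUL, AP1, CAL and AGL24 held none of the 4 motifs. A motif match is a description of the letters and not a binding site.

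**Figure D1:**
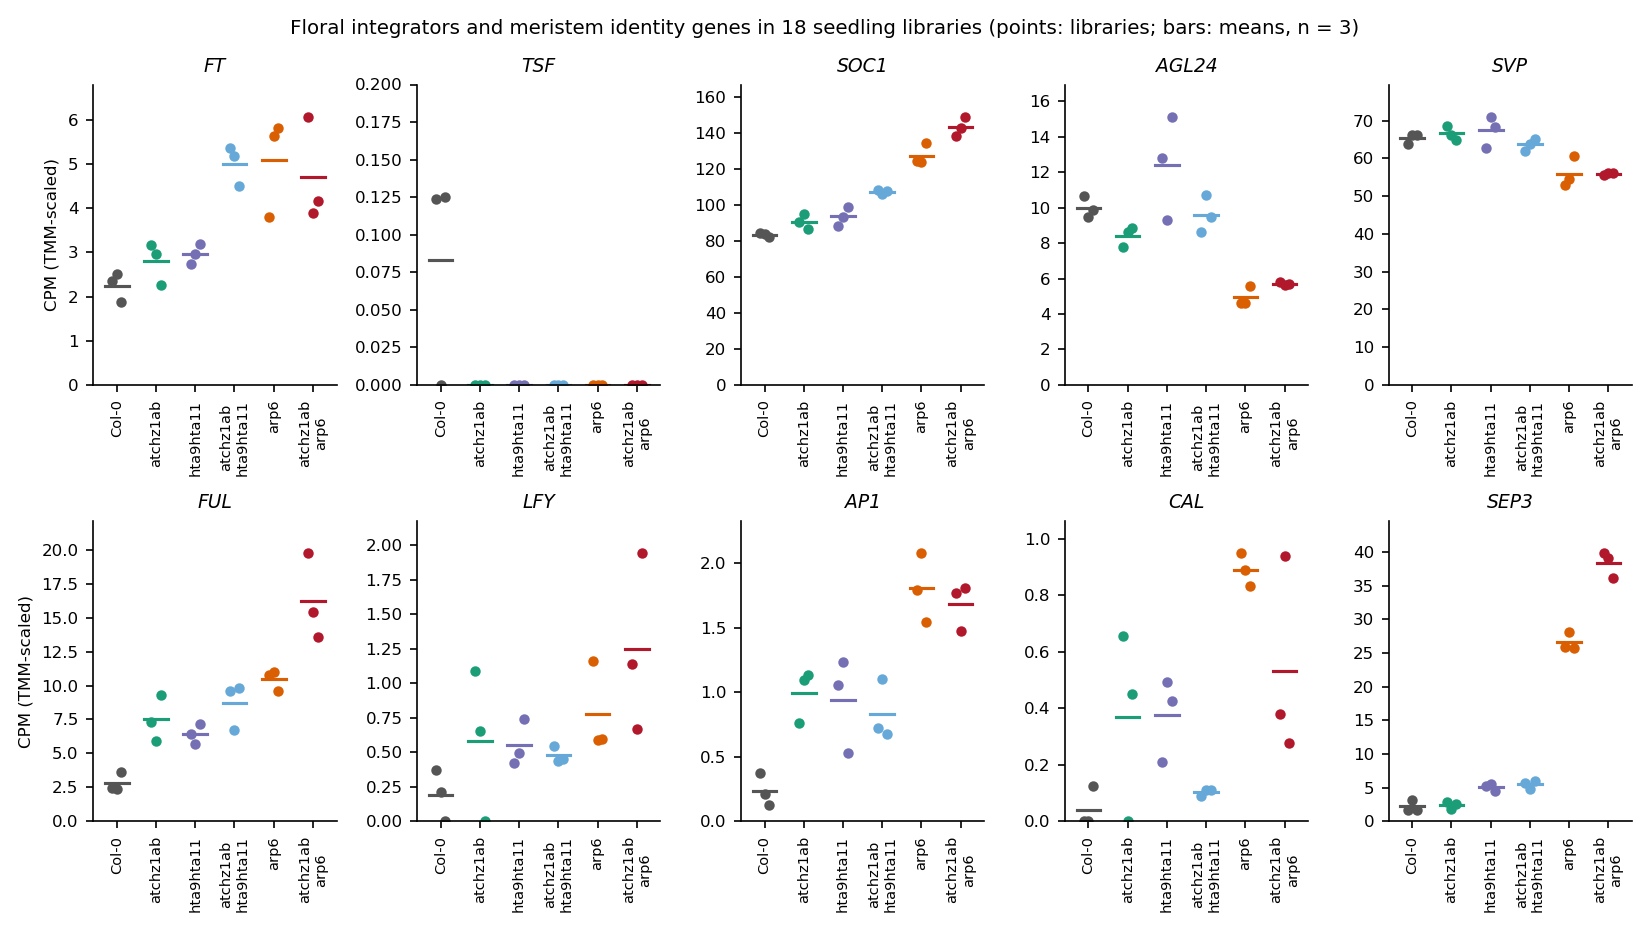
Each panel plots 1 member gene in CPM (TMM-scaled) for the 18 libraries, with points for libraries and bars for the mean of 3. SEP3, SOC1 and FUL have their highest means in the 2 genotypes that carry arp6, AGL24 and SVP are lowest there, and TSF has counts in Col-0 alone. Vertical scales differ between panels.

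The florigen FT (AT1G65480, TAIR10.1 chromosome 1, 24331373 to 24333999, plus strand) rose about as much in 3 of the 5 mutant lines. Its levels in the 3 libraries were 2.35, 2.52 and 1.88 CPM in Col-0, and 3.79, 5.63 and 5.82 CPM in arp6. In atchz1ab hta9hta11 they were 5.35, 5.17 and 4.5 CPM, and in atchz1ab arp6 6.07, 3.88 and 4.16 CPM. Each of these 9 mutant libraries stood above every Col-0 library. By edgeR's quasi-likelihood test, with p-values adjusted by Benjamini-Hochberg over all genes tested, the log2 fold change was 1.14 ± 0.26 (SE) in arp6 (adjusted p = 8.39e-05). It was 1.15 ± 0.25 in atchz1ab hta9hta11 (adjusted p = 0.000322) and 1.06 ± 0.26 in atchz1ab arp6 (adjusted p = 0.000441). These comparisons share the Col-0 libraries.

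FT did not pass the test in atchz1ab or hta9hta11. In atchz1ab the libraries held 3.17, 2.96 and 2.26 CPM (log2 fold change 0.31 ± 0.28, edgeR adjusted p = 0.585), and 1 of them fell within the Col-0 range. In hta9hta11 they held 2.75, 2.97 and 3.19 CPM (0.39 ± 0.28, adjusted p = 0.451), all above Col-0. Between hta9hta11 and atchz1ab hta9hta11 FT differed by 0.76 ± 0.24 on the log2 scale, with every library of the combined line higher and an edgeR adjusted p of 0.0794. The interaction, which asks whether the atchz1ab change differs between Col-0 and hta9hta11, gave 0.45 with adjusted p = 0.609.

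TSF (AT4G20370, chromosome 4, 11000771 to 11003010, minus strand), the close relative of FT, had 1, 0 and 1 counts in the Col-0 libraries and 0 in all 15 mutant libraries. Both levels are under the floor of 3 counts over a group, so no fold is given. TSF and FT share 82.2% of aligned coding bases, and their longest identical run is 29 bases.

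SOC1 (AT2G45660, chromosome 2, 18807505 to 18811125, minus strand), the MADS-domain integrator of the photoperiod, cold and age routes, was the member with the highest level per length in every genotype. It stood at 84.2, 83.5 and 82.4 CPM in Col-0, at 90.5, 94.8 and 86.5 CPM in atchz1ab, and at 88.4, 93.4 and 98.9 CPM in hta9hta11. In atchz1ab hta9hta11 it reached 108, 106 and 108 CPM. The arp6 libraries held 124, 124 and 134 CPM and those of atchz1ab arp6 138, 143 and 149 CPM. Every mutant library was above every Col-0 library. As ratios to Col-0 the changes were smaller than those of FUL and, outside atchz1ab, than those of SEP3. In CPM the SOC1 gain in arp6 was 43.9, against 24.4 for SEP3 and 7.61 for FUL.

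The test called SOC1 higher in 4 of the 5 lines. Its log2 fold change was 0.61 ± 0.05 in arp6 (edgeR adjusted p = 1.95e-23) and 0.78 ± 0.05 in atchz1ab arp6 (adjusted p = 1.71e-31), which are 1.53 and 1.72 times the Col-0 mean. It was 0.36 ± 0.05 in atchz1ab hta9hta11 (adjusted p = 3.24e-10) and 0.17 ± 0.05 in hta9hta11 (adjusted p = 0.0112). The hta9hta11 call was lost without replicate 3 of that line (adjusted p = 0.164). With an assumed coefficient of variation of 0.1 between samples, in place of the fitted spread, the calls in hta9hta11 (adjusted p = 0.773) and atchz1ab hta9hta11 (adjusted p = 0.0788) were lost as well. In atchz1ab the change of 0.12 ± 0.05 missed the threshold (adjusted p = 0.097).

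AGL24 (AT4G24540, chromosome 4, 12670897 to 12674106, minus strand), a MADS-domain activator of flowering that acts with SOC1, fell in both genotypes that carry arp6. The levels were 10.7, 9.44 and 9.88 CPM in Col-0, 4.64, 4.59 and 5.58 CPM in arp6, and 5.82, 5.62 and 5.69 CPM in atchz1ab arp6. No arp6-carrying library reached the lowest Col-0 value. AGL24 fell by 1.01 ± 0.18 on the log2 scale in arp6 (edgeR adjusted p = 3.81e-07) and by 0.80 ± 0.17 in atchz1ab arp6 (adjusted p = 4.76e-05). In the other lines it was not called, with 7.75, 8.65 and 8.82 CPM in atchz1ab and 8.62, 10.7 and 9.44 CPM in atchz1ab hta9hta11. Replicates of hta9hta11 spread from 9.28 to 15.1 CPM (log2 fold change 0.33 ± 0.15, adjusted p = 0.15), and without replicate 2 of that line the change was 0.48 with adjusted p = 0.026.

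SVP (AT2G22540, chromosome 2, 9579647 to 9583901, plus strand), the closest relative of AGL24 among the members and a repressor of FT and SOC1, fell slightly in the same 2 lines. It stood at 63.8, 66.2 and 66.1 CPM in Col-0, at 52.8, 54.4 and 60.6 CPM in arp6, and at 55.6, 56.1 and 56.1 CPM in atchz1ab arp6. The groups did not overlap, and the mean in arp6 was 0.856 times that in Col-0. The log2 fold change was -0.23 ± 0.06 in both lines (edgeR adjusted p = 0.000891 in arp6 and 0.00122 in atchz1ab arp6). With the assumed coefficient of variation of 0.1 these calls were lost (adjusted p = 0.173 and 0.188). The remaining 3 lines lay between 62 and 71 CPM and overlapped Col-0. AGL24 and SVP share 69.8% of aligned coding bases with a longest identical run of 18 bases.

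FUL (AT5G60910, chromosome 5, 24502434 to 24506269, minus strand), a MADS-domain gene of the AP1 group that promotes flowering and later shapes the fruit, was called higher in each of the 5 mutant lines. Col-0 libraries held 2.48, 2.41 and 3.62 CPM. Those of atchz1ab held 7.32, 5.91 and 9.28 CPM, and those of hta9hta11 6.45, 5.69 and 7.13 CPM. FUL stood at 9.62, 6.71 and 9.78 CPM in atchz1ab hta9hta11, at 10.8, 11 and 9.62 CPM in arp6, and at 19.7, 15.4 and 13.6 CPM in atchz1ab arp6. The lowest mutant library was above the highest Col-0 library.

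In atchz1ab the log2 fold change of FUL was 1.41 ± 0.21 (edgeR adjusted p = 3.69e-08), a mean 2.64 times that of Col-0. It was 1.19 ± 0.22 in hta9hta11 (adjusted p = 8.88e-06), 1.63 ± 0.20 in atchz1ab hta9hta11 (adjusted p = 5.62e-11) and 1.88 ± 0.20 in arp6 (adjusted p = 6.45e-15). In atchz1ab arp6 it reached 2.53 ± 0.19 (adjusted p = 3.02e-24), or 5.72 times the Col-0 mean.

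LFY (AT5G61850, chromosome 5, 24844248 to 24846989, plus strand), the plant-specific regulator that sets floral meristem identity, was near the limit of detection. It had 3, 2 and 0 counts in the Col-0 libraries, 10, 6 and 0 in atchz1ab and 4, 4 and 7 in hta9hta11. There were 6, 4 and 4 counts in atchz1ab hta9hta11, 11, 4 and 5 in arp6 and 9, 5 and 14 in atchz1ab arp6. Where the fit was run with no filter on low counts, LFY was called higher in arp6 (edgeR log2 fold change 1.97, adjusted p = 0.03) and in atchz1ab arp6 (2.58, adjusted p = 0.00156). It was not called in the other lines, where adjusted p lay between 0.297 and 0.464.

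AP1 (AT1G69120, chromosome 1, 25982294 to 25986349, minus strand) and CAL (AT1G26310, chromosome 1, 9099994 to 9103644, minus strand) are paralogous MADS-domain genes with overlapping roles in floral meristem identity, and both were low. They share 84.3% of aligned coding bases. Whether reads that match both were counted, and for which gene, is not stated in the sources used here. Their longest identical run, shown because a short read inside it cannot tell them apart, is 56 bases at coding positions 20 to 75 of both genes (AP1 chr1:25986028-25986083, CAL chr1:9103436-9103491, both on the minus strand).
AP1 and CAL shared run: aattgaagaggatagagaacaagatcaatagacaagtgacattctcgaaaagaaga
The run has no capitals because all of it is identical.

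AP1 had 3, 2 and 1 counts in the Col-0 libraries and 17, 14 and 13 counts in those of arp6. It had 14, 11 and 13 counts in atchz1ab arp6. In atchz1ab there were 7, 10 and 10 counts, in hta9hta11 10, 10 and 5, and in atchz1ab hta9hta11 8, 10 and 6. All 15 mutant libraries had more counts than any Col-0 library, from 6 counts in all in Col-0. AP1 passed the filter of 1.14 CPM in 3 libraries only through the genotypes that carry arp6, so its call in those lines was favoured by the filter. In atchz1ab and in hta9hta11 1 library each passed 1.14 CPM, and in atchz1ab hta9hta11 0. AP1 was therefore tested in these lines, and called in atchz1ab and hta9hta11, only because the arp6 genotypes carried it past the filter.

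On the log2 scale AP1 rose by 2.86 ± 0.57 in arp6 (edgeR adjusted p = 8.85e-06) and by 2.77 ± 0.58 in atchz1ab arp6 (adjusted p = 3.09e-05). It rose by 2.02 ± 0.63 in atchz1ab (adjusted p = 0.0197) and by 1.92 ± 0.64 in hta9hta11 (adjusted p = 0.034), while in atchz1ab hta9hta11 the 1.76 ± 0.65 missed the threshold (adjusted p = 0.0623). The atchz1ab call was lost without Col-0 replicate 2 (adjusted p = 0.0818) or 3 (0.0974), or without atchz1ab replicate 2 (0.0618) or 3 (0.0676). The hta9hta11 call was lost without Col-0 replicate 2 (adjusted p = 0.116) or 3 (0.137), without hta9hta11 replicate 1 (0.108) or 2 (0.143), and in DESeq2's Wald test (0.0694).

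CAL had 0, 0 and 1 counts in the Col-0 libraries and 9, 6 and 7 counts in those of arp6. It had 3, 7 and 2 counts in atchz1ab arp6, 6, 0 and 4 in atchz1ab, 2, 4 and 4 in hta9hta11 and 1 in each library of atchz1ab hta9hta11. Against the 1 count of Col-0, the ratio of scaled counts was 22.9 in arp6, with a 95% counting interval of 3.69 to 943, and 13.6 in atchz1ab arp6 (2.01 to 582). It was 9.44 in atchz1ab (1.34 to 410) and 9.51 in hta9hta11 (1.35 to 413). Intervals cover counting error only, and with no filter edgeR's adjusted p was 0.000587 in arp6, 0.0171 in atchz1ab arp6 and at least 0.164 in the other 3 lines.

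SEP3 (AT1G24260, chromosome 1, 8593536 to 8596123, minus strand), the SEPALLATA gene that bridges meristem and organ identity complexes, changed most of the tested members in arp6. Its levels were 1.73, 3.25 and 1.75 CPM in Col-0 and 2.95, 1.86 and 2.6 CPM in atchz1ab, and these overlapped. Libraries of hta9hta11 held 5.28, 5.57 and 4.47 CPM and those of atchz1ab hta9hta11 5.71, 4.84 and 5.96 CPM. In arp6 SEP3 reached 25.9, 28.2 and 25.8 CPM, and in atchz1ab arp6 39.8, 39.1 and 36.1 CPM. The 3 steps, from Col-0 to hta9hta11 to arp6 to atchz1ab arp6, did not overlap.

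The log2 fold change of SEP3 was 3.52 ± 0.17 in arp6 (edgeR adjusted p = 3.59e-41), a mean 11.9 times that of Col-0. It was 4.05 ± 0.16 in atchz1ab arp6 (adjusted p = 5.23e-49), or 17.1 times. In hta9hta11 it was 1.14 ± 0.22 (adjusted p = 4.29e-05) and in atchz1ab hta9hta11 1.26 ± 0.22 (adjusted p = 2.44e-06). In atchz1ab the estimate was 0.10 ± 0.26 (adjusted p = 0.878), and it was -0.05 without Col-0 replicate 1, Col-0 replicate 3 or atchz1ab replicate 1.

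**Figure D2:**
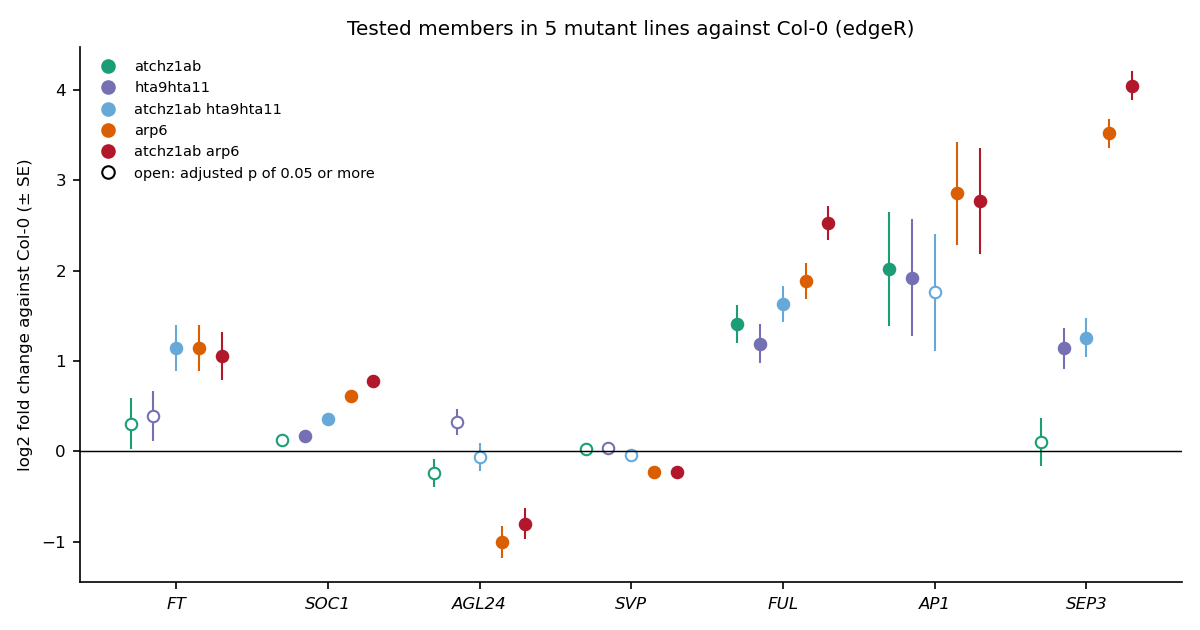
Points give edgeR log2 fold changes against Col-0 (vertical axis, ± SE) for the 7 tested members in the 5 mutant lines, filled where the adjusted p was under 0.05. FUL is filled in all 5 lines, AGL24 and SVP are filled below 0 in the 2 lines with arp6, and SEP3 spans from 0.10 in atchz1ab to 4.05 in atchz1ab arp6.

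Counted over the 7 tested members, 2 rose and 0 fell in atchz1ab, where 6.15% of all genes tested were called higher and 5.55% lower. In hta9hta11 4 rose and 0 fell, against 5.98% higher and 5.26% lower of all genes. In atchz1ab hta9hta11 4 rose and 0 fell, against 6.19% and 5.32%. The risen members were FUL and AP1 in atchz1ab, with SOC1 and SEP3 added in hta9hta11, and SOC1, FUL, FT and SEP3 in atchz1ab hta9hta11. In arp6 5 rose and 2 fell, where 24.2% of all genes were higher and 25.5% lower, and in atchz1ab arp6 5 rose and 2 fell, against 22.7% and 23.2%. Since nearly as many genes were called as not in the arp6 lines, a call there says less about these genes than its size.

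The median log2 fold change of the 7 was 0.12 in atchz1ab, 0.39 in hta9hta11, 1.15 in atchz1ab hta9hta11, 1.14 in arp6 and 1.06 in atchz1ab arp6, and the median over all genes was between -0.02 and 0.00. AP1 entered this set through the arp6 lines, and 3 members are absent from it. Scaling by library totals moved the median of all genes in arp6 to -0.13, and the 5 members called higher and 2 called lower there were unchanged in number. With that scaling 31.3% of the genes called in arp6 were higher, compared with 48.8% under TMM, and in atchz1ab arp6 the share was 37.6% compared with 49.5%.

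Between arp6 and hta9hta11, which carry mutations in a SWR1 subunit and in H2A.Z genes, 4 members were higher in arp6 and 2 lower, with 22.1% of all genes higher and 22.6% lower. SEP3 was 5.21 times as high in arp6 (log2 fold change 2.38 ± 0.14, edgeR adjusted p = 1.31e-32). FUL differed by 0.69 ± 0.17 (adjusted p = 0.000315), SOC1 by 0.44 ± 0.05 (adjusted p = 1.15e-15) and FT by 0.75 ± 0.24 (adjusted p = 0.00713). The FT call was lost without arp6 replicate 3 (adjusted p = 0.0599). AGL24 was lower in arp6 by -1.33 ± 0.17 (adjusted p = 1.10e-11) and SVP by -0.27 ± 0.06 (adjusted p = 8.44e-05), though the SVP call was lost with the assumed coefficient of variation of 0.1 (adjusted p = 0.108). AP1 differed by 0.93 ± 0.42 (adjusted p = 0.0634) and was called with the assumed coefficient of variation (adjusted p = 0.0427). With library totals the median of all genes moved to -0.12, and 30.5% of called genes were higher in arp6, compared with 49.5% under TMM.

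Adding atchz1ab to arp6 raised 3 members further and lowered 0, where 6.63% of all genes were higher and 8.01% lower. SEP3 rose by another 0.53 ± 0.10 (edgeR adjusted p = 2.06e-05), FUL by 0.64 ± 0.15 (adjusted p = 0.000472) and SOC1 by 0.17 ± 0.04 (adjusted p = 0.00294). In CPM these were gains of 11.7, 5.8 and 15.9 over the arp6 means. The libraries of the 2 lines did not overlap for these 3 genes, nor for AGL24, which was not called. The share of all genes without such overlap was not computed. The SOC1 call was lost with the assumed coefficient of variation of 0.1 (adjusted p = 0.657). FT differed by -0.09 ± 0.23 (adjusted p = 0.877), AP1 by -0.09 (adjusted p = 0.932), AGL24 by 0.21 (adjusted p = 0.584) and SVP by 0.00. Under library totals 66.3% of the called genes were higher in atchz1ab arp6, compared with 45.3% under TMM.

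Adding atchz1ab to hta9hta11 raised 1 member and lowered 0, where 0.793% of all genes were higher and 0.952% lower. That member was SOC1, at 0.20 ± 0.05 (edgeR adjusted p = 0.00449). Leaving out hta9hta11 replicate 1 ended that call (adjusted p = 0.144), as did fitting with the assumed coefficient of variation (adjusted p = 1). FUL stood 0.44 ± 0.17 higher with overlapping libraries (adjusted p = 0.242). AGL24 stood at -0.39 ± 0.14 (adjusted p = 0.197), and without hta9hta11 replicate 2 at -0.55 with adjusted p = 0.036. Under library totals 60.1% of the called genes were higher, compared with 45.5% under TMM.

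The interaction tests ask whether atchz1ab changed a gene by the same factor in each background. With hta9hta11, 7.15% of all genes were called in either direction, and of the members FUL alone was called. Its log2 change with atchz1ab was 1.41 in Col-0 and 0.44 in hta9hta11, an interaction of -0.97 ± 0.27 (edgeR adjusted p = 0.0127). The call was lost without Col-0 replicate 2 (adjusted p = 0.0717), atchz1ab replicate 3 (0.0892), hta9hta11 replicate 3 (0.0518) or atchz1ab hta9hta11 replicate 2 (0.0586), and with the assumed coefficient of variation (0.0575). In CPM, FUL gained 4.66 from atchz1ab in Col-0 and 2.28 in hta9hta11.

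With arp6, 13.7% of all genes were called in either direction, and of the members FUL and AP1 were called. The FUL interaction was -0.76 ± 0.26 (edgeR adjusted p = 0.0348). It kept its call in 5 of the 12 fits that left out 1 library, and was lost without Col-0 replicate 1 (adjusted p = 0.105) or 2 (0.145), atchz1ab replicate 3 (0.176), arp6 replicate 1 (0.0675) or 2 (0.0626), or atchz1ab arp6 replicate 2 (0.0641) or 3 (0.101). In CPM the gain of FUL in arp6 was 5.8, against 4.66 in Col-0, from a starting mean of 10.5 CPM in arp6 and 2.84 CPM in Col-0. The AP1 interaction was -2.11 ± 0.75 (adjusted p = 0.0441) and kept its call in 3 of 12 such fits, with adjusted p from 0.0545 to 0.13 where it was lost. Those were the fits without Col-0 replicate 2 or 3, atchz1ab replicate 2 or 3, arp6 replicate 1 or 2, or any 1 library of atchz1ab arp6. Neither call held in DESeq2's Wald test (adjusted p = 0.0874 for FUL and 0.0836 for AP1) or with library totals (0.0539 and 0.0519). With no filter AP1 had adjusted p = 0.0605, and with the assumed coefficient of variation FUL had 0.126. Of the genes called here, 46.5% had a positive interaction under TMM and 62.9% under library totals.

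**Figure D3:**
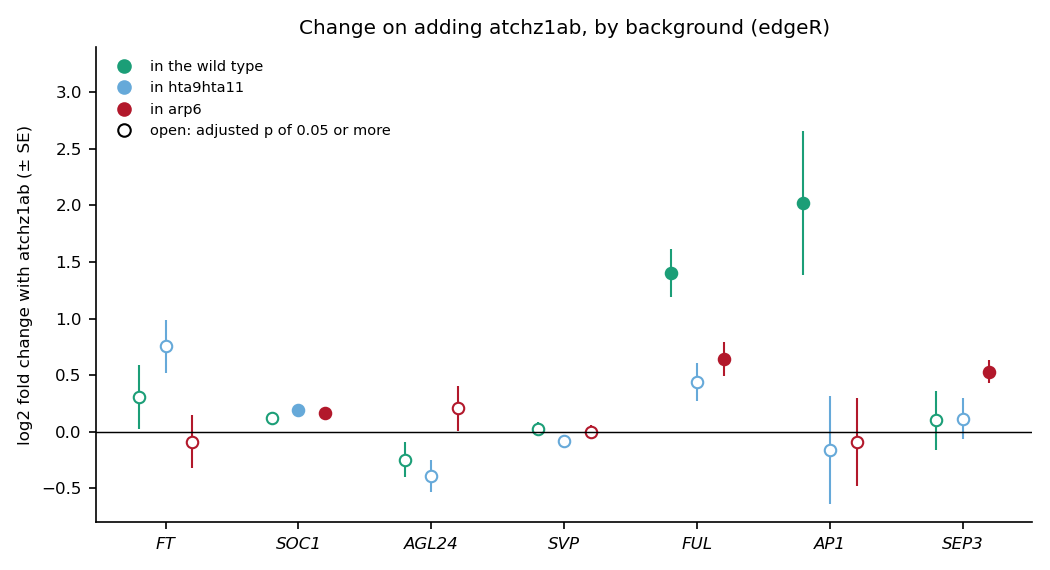
For each tested member, points give the log2 fold change with atchz1ab (vertical axis, edgeR, ± SE) in the wild type, in hta9hta11 and in arp6, filled where the adjusted p was under 0.05. FUL is at 1.41 in the wild type, 0.44 in hta9hta11 and 0.64 in arp6. SEP3 is filled in arp6 alone, but its interaction with arp6 was not called (0.43 ± 0.28, edgeR adjusted p = 0.384).

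Per kilobase of exon, the order of mean levels in Col-0 was SOC1 at 53.7 CPM per kb, SVP at 36.5, AGL24 at 8.65, FT at 2.31, FUL at 2.18 and SEP3 at 1.77. LFY stood at 0.141, AP1 at 0.135, TSF at 0.102 and CAL at 0.0337. FT, FUL and SEP3 overlapped between libraries, as did the 4 lowest genes with each other. In atchz1ab arp6 the order was SOC1 at 92.2 CPM per kb, SVP at 31.2, SEP3 at 30.2, FUL at 12.5, AGL24 at 4.94 and FT at 4.83, with SVP and SEP3 overlapping and AGL24 and FT overlapping. AP1 stood at 0.965, LFY at 0.907 and CAL at 0.429, and TSF had no count.

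The genes whose log2 levels were (CPM with a prior count of 2) most like those of SOC1 over the 18 libraries were CER1 (AT1G02205), a gene of wax alkane synthesis, with Pearson's r of 0.972, then AT5G20740 with 0.967 and emb2386 (AT1G02780) with 0.963. Those most like SEP3 were AT1G27580 with 0.985, AT4G21650 with 0.984 and WAKL6 (AT1G16110) with 0.982. For FUL the first was AT1G70820 with 0.939, and for FT it was ATARCA (AT1G18080) with 0.881. Among the members, SOC1 and SEP3 had r of 0.946, and SEP3 and SVP had -0.843. The 18 libraries fall into 6 genotypes that share alleles, so these values describe the genotype pattern and carry no test.

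Genes of the routes into the integrators were described by lists chosen with earlier results of these data known. The shares of all tested genes called are repeated beside each list, and the median over all genes is near 0 in each line. Of 6 FLC family repressors, 4 fell and 1 rose in arp6 (25.5% of all genes lower, 24.2% higher), with a median log2 fold change of -1.02. MAF4 had 44 counts in Col-0 and 0 in arp6, at least 14.1-fold lower when the arp6 group is set to the floor of 3 counts. The list's median is the same with MAF4 at this bound. MAF5 fell from 6.05 ± 0.096 to 0.992 ± 0.569 CPM, and FLC, the main repressor of SOC1 and FT in the cold route, from 3.46 ± 0.371 to 1.19 ± 0.416 CPM in arp6 (-1.54 on the log2 scale, edgeR adjusted p = 0.000151). FLM fell by 0.50, and MAF2, named after its values were seen, rose by 0.39. FLC values are uncertain because a gene on the opposite strand overlaps it and whether reads were counted by strand is not stated in the sources used here. In atchz1ab arp6 4 of the 6 fell (23.2% of all genes lower) and in atchz1ab hta9hta11 3 (5.32%). In atchz1ab (5.55%) and hta9hta11 (5.26%) 1 fell.

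Of 9 genes of photoperiod input to FT, 6 rose and 1 fell in arp6 (24.2% of all genes higher, 25.5% lower), with a median of 0.65. FDP rose by 1.11, its relative FD, the partner of FT at the apex, by 0.85, and CDF1, a repressor of CO and FT, by 0.71, while CDF2 fell by 0.69. GI, an activator of CO that also rose in the other 4 lines, was named after its values were seen and stood at 149 ± 7.81 CPM in Col-0 and 235 ± 6.23 CPM in arp6. The sample values used here give no hour of harvest. Its part in the levels of these genes or of FT was not tested. In atchz1ab 3 rose and 2 fell (6.15% of all genes higher, 5.55% lower). There were 1 risen in hta9hta11 (5.98% higher), 2 in atchz1ab hta9hta11 (6.19%) and 5 in atchz1ab arp6 (22.7%).

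Of 11 other repressors of FT or of the floral transition, 5 fell and 2 rose in arp6 (25.5% of all genes lower, 24.2% higher), with a median of -0.14. TEM2, a direct repressor of FT, went from 14.1 ± 1.26 CPM in Col-0 to 3.31 ± 0.251 CPM in arp6 (-2.07 ± 0.18 on the log2 scale, edgeR adjusted p = 1.36e-19), and TEM1 fell by 0.95. AP2 fell by 0.54, and BFT, a relative of FT that delays flowering, rose by 1.04. A gene on the opposite strand overlaps 333 bases of BFT, so its values are uncertain, as for FLC. In atchz1ab arp6 5 fell and 3 rose (23.2% of all genes lower, 22.7% higher). In atchz1ab hta9hta11 3 fell (5.32% lower), in hta9hta11 2 (5.26%) and in atchz1ab 1 (5.55%).

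Of 7 SPL genes, targets of the microRNA miR156 that activate SOC1, FUL and LFY with age, 5 rose and 0 fell in arp6 (24.2% of all genes higher, 25.5% lower), with a median of 0.65. SPL3 stood at 5.8 ± 0.356 CPM in Col-0 and at 15.7 ± 1.14 CPM in arp6 (1.43 ± 0.15 on the log2 scale, edgeR adjusted p = 5.44e-15). SPL15 rose by 1.18, SPL5 by 0.95 and SPL4 by 0.65. Opposite-strand genes overlap SPL3 by 1046 bases, and SPL15 and SPL5 over their whole lengths of 1793 and 1959 bases. SPL4 is overlapped by 197 bases. These values are therefore uncertain, as for FLC, because whether reads were counted by strand is not stated. In atchz1ab arp6 4 rose (22.7% of all genes higher). In hta9hta11 SPL3 rose by 0.86 and SPL4 by 0.68 (5.98% of all genes higher), in atchz1ab hta9hta11 SPL4 rose by 0.67 (6.19%), and in atchz1ab 0 rose (6.15%). None of 6 SOC1-like and FUL-like relatives passed the filter on low counts, and their summed level was at most 2 CPM in any library.

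**Figure D4:**
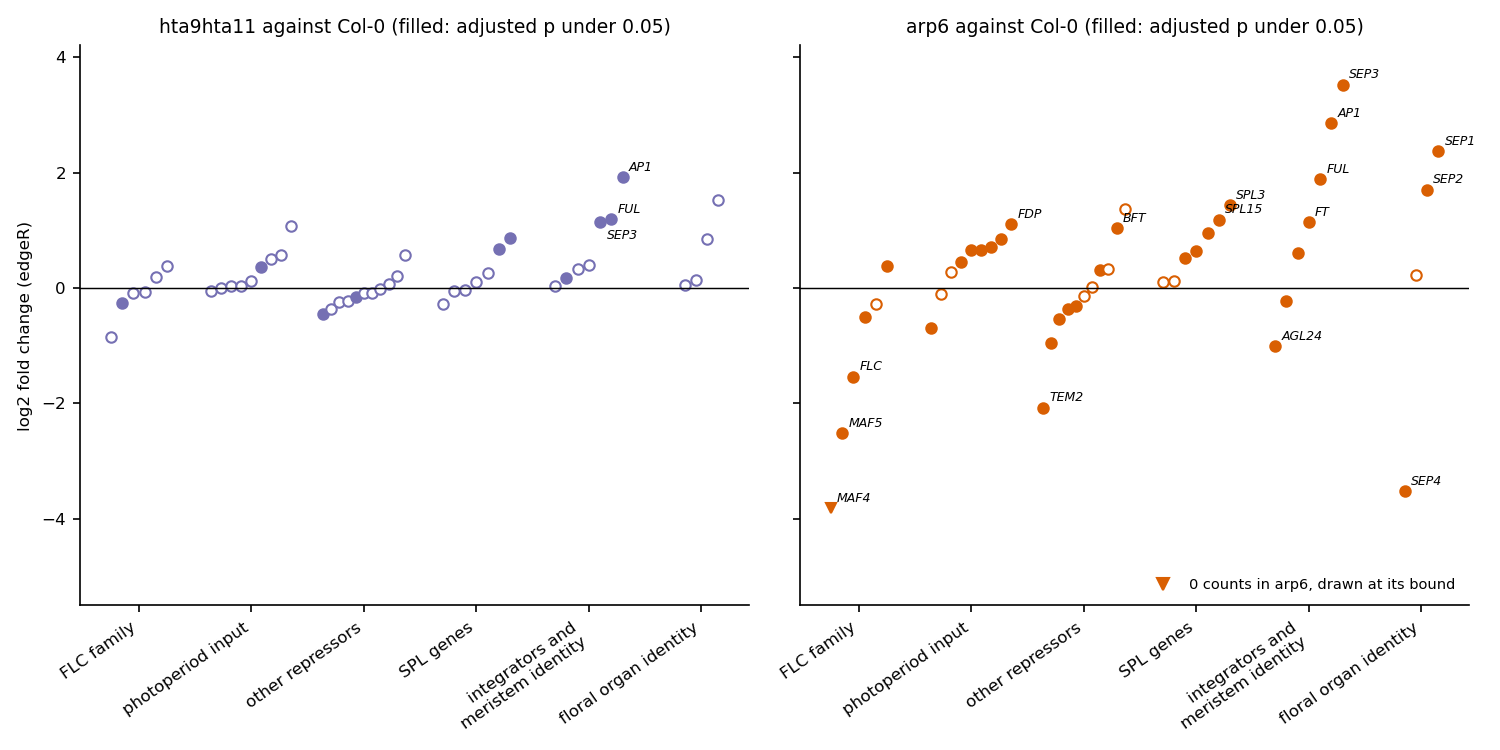
Points give edgeR log2 fold changes (vertical axis) of the tested genes in 6 lists, for hta9hta11 (left) and arp6 (right) against Col-0, filled where the adjusted p was under 0.05. In arp6 MAF4, SEP4, MAF5, TEM2 and FLC lie lowest and SEP3, AP1 and SEP1 highest. MAF4, with 0 counts in arp6, is drawn at its bound.

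Of 11 floral organ identity genes other than SEP3, 4 passed the filter, and in arp6 2 of them rose and 1 fell (24.2% of all genes higher, 25.5% lower). Of the SEPALLATA genes, which act with overlapping roles in flowers, SEP1 and SEP3 rose in arp6 and SEP4 fell. SEP1 stood at 1.42 ± 0.312 CPM in Col-0 and at 7.68 ± 2.48 CPM in arp6 (2.37 ± 0.28 on the log2 scale, edgeR adjusted p = 4.76e-13) and SEP2 from 0.367 ± 0.227 to 1.21 ± 0.402 CPM (1.70 ± 0.60, adjusted p = 0.0124). No Col-0, atchz1ab or atchz1ab hta9hta11 library held SEP2 above 0.874 CPM, so it passed the filter only through hta9hta11 and the arp6 genotypes, and its call there was favoured by the filter. SEP4 fell from 14.6 ± 0.42 to 1.24 ± 0.209 CPM (-3.52 ± 0.22, adjusted p = 1.62e-30). Opposite-strand genes overlap SEP1 by at most 449 bases each, so its values are uncertain, as for FLC. In atchz1ab arp6 the same 3 genes were called, SEP1 at 2.27, SEP2 at 1.49 and SEP4 at -3.30. SEP1, SEP2 and SEP4 were not called in atchz1ab, hta9hta11 or atchz1ab hta9hta11, and SEP4 was lower in arp6 than in hta9hta11 by -3.65 ± 0.21 (adjusted p = 1.31e-32).

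**Figure D5:**
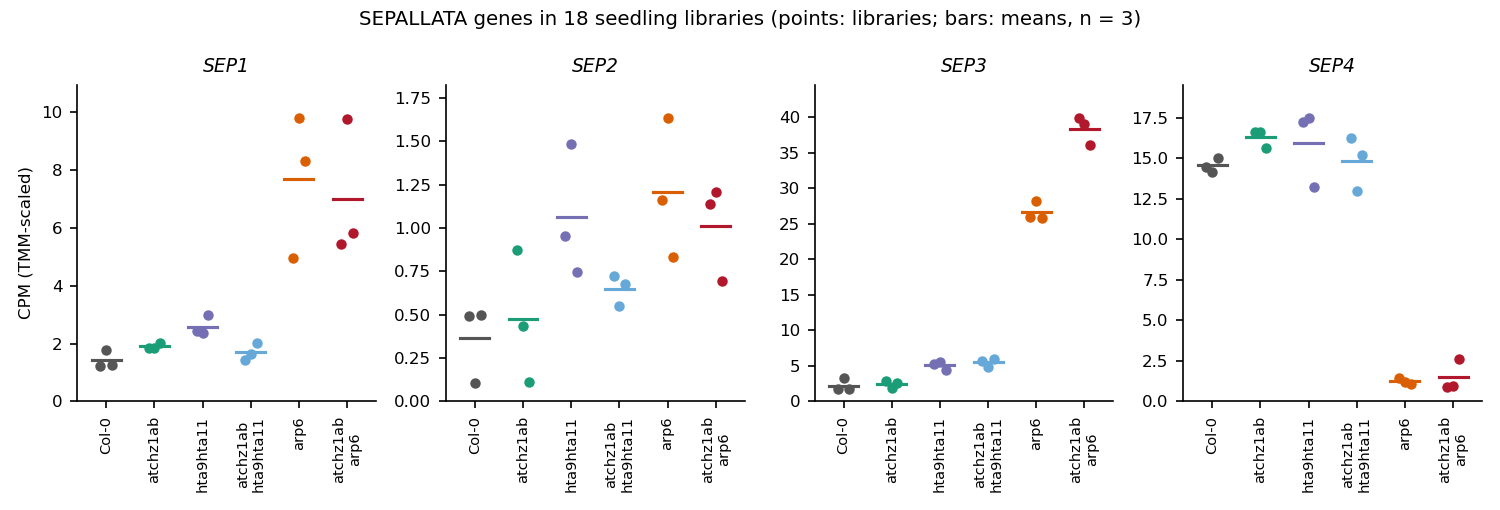
Each panel plots 1 SEPALLATA gene in CPM (TMM-scaled) for the 18 libraries, with points for libraries and bars for the mean of 3. SEP1 and SEP3 have their highest means in the genotypes that carry arp6, SEP2 means are 1.21 CPM in arp6, 1.06 in hta9hta11 and 1.01 in atchz1ab arp6, and in the arp6 genotypes SEP4 falls from between 13 and 18 CPM to under 3 CPM.

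Markers of organs were set beside these values. The 4 leaf markers (RBCS1A, RCA, LHCB1.3 and PSBO1) summed to 27400 to 27700 CPM in Col-0, 35800 to 36400 in arp6 and 32300 to 33700 in atchz1ab arp6. All 4 were called higher in arp6 (24.2% of all genes higher) and in atchz1ab arp6 (22.7%). All 4 were called lower on adding atchz1ab to arp6 (8.01% of all genes lower). In atchz1ab 2 were higher and 1 lower (6.15% and 5.55% of all genes), and in hta9hta11 2 and 1 (5.98% and 5.26%). In atchz1ab hta9hta11 2 were higher and 2 lower (6.19% and 5.32%). Median log2 fold changes of the 4 were 0.07, 0.07 and 0.02 in these lines. They were 0.33 in arp6, 0.27 in atchz1ab arp6 and -0.11 on adding atchz1ab to arp6. Of 5 root markers, CASP1, MYB36, EXPA7 and COBL9 were at or near 0 and SCR carried the sum, from 34.8 to 43.5 CPM in all genotypes. Apart from SCR, these markers thus showed little sign of root in the libraries, and its share was not tested. SCR, the 1 root marker tested, was called higher in arp6 (log2 fold change 0.22) and in atchz1ab arp6 (0.23). The 4 anther markers summed to at most 0.45 CPM in any library, and A9 was at 0 in all of them. Of the floral genes, AP3 had 2 counts in Col-0 and 21 in arp6, a ratio of 10.9 with a counting interval of 2.67 to 96. AG had 6 and 13, and STK had 0 in every genotype. In atchz1ab arp6 AP3 had 18 counts and AG had 2. Between Col-0 and arp6 SHP1 went from 12 to 6 counts, AGL6 stayed at 4, and PI had 32 and 36. SHP2 went from 3 to 6 and UFO from 2 to 5, with ratio intervals (0.444 to 12.8 and 0.425 to 27.3) that included no change. The part of organ proportions and of developmental stage in the results above was not tested.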

How the data were processed

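RNA-seq counts from 18 Arabidopsis seedling libraries, 6 genotypes with 3 libraries each, were analysed as deposited. Per the labels' protocols, a column kit for plant RNA and a stranded mRNA-seq kit were used. Per the submitters' processing notes, cutadapt, HISAT2, SAMtools and featureCounts were used with TAIR10. Their versions and settings, strand included, were not given in the sources used here. Raw read counts for every gene were deposited by the authors, without normalization. The table holds 33602 genes, and 0 columns were left unused.

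The 18 libraries entered 1 fit with genotype as the factor and 12 residual degrees of freedom (edgeR 4.0.16, R 4.3.3, quasi-likelihood test, TMM scaling, filterByExpr). The filter asked for 1.14 CPM in 3 libraries and kept 18906 genes. The threshold for a call was 0.05 after Benjamini-Hochberg adjustment across these genes. There were 8 comparisons of genotypes and 2 interactions, and the common coefficient of variation was 3.08%. The members and gene lists were chosen with earlier results of these data known. All members are reported, and in each list up to 4 called genes per comparison were named, in order of log2 fold change. Groups with 0 counts are given as bounds against a floor of 3 counts, and those with 1 to 3 counts as ratios with an exact 95% counting interval. Both cover counting error only, since PCR copies are counted as reads.

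In 18 replicate pairs the chi-square statistic divided by its degrees of freedom lay between 1.43 and 1.69, above sampling noise, so no library was a copy of another. Coordinates and sequences are from RefSeq TAIR10.1, which carries the same nuclear chromosomes as TAIR10. No annotated gene overlaps a member. The alternatives were RLE scaling, library totals, no filter, DESeq2 1.42.0, an assumed coefficient of variation of 0.1, the replicate number as a block, only the genotypes compared, and leaving out each library. The test was checked on simulated counts.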

Additional observations from a re-analysis of the deposited data

Results flagged for a closer look

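The interaction of atchz1ab with hta9hta11 was called for FUL, at -0.97 on the log2 scale. It was looked at again because the change with atchz1ab differed between 2 backgrounds by a test of the difference itself, and the FUL gain was 4.66 CPM in Col-0 and 2.28 CPM in hta9hta11. The interaction of atchz1ab with arp6 was called for FUL, at -0.76, with gains of 4.66 CPM in Col-0 and 5.8 CPM in arp6. The same interaction was called for AP1, at -2.11, where Col-0 had 6 counts in all and each of the other 3 genotypes had from 27 to 44. All 3 calls were lost in some of the fits that left out 1 library.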

How the results depend on the processing

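The replicate numbers did not pair the libraries. Deviations of same-numbered libraries from their group means correlated between -0.027 and 0.03 over 45 pairs, and 0 were over 0.1. With the replicate number as a block, members called stayed at 2 in atchz1ab, 4 in hta9hta11, 7 in arp6, 4 in atchz1ab hta9hta11 and 7 in atchz1ab arp6, and 9388 genes were called in arp6 against 9402 without the block. No member's call changed under the block, which gave -0.0002 for SVP between arp6 and atchz1ab arp6.

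Scaling by RLE changed no member's call. When the fit held only the genotypes compared, 1 member rather than 2 was called in atchz1ab, since AP1 did not pass the filter there. In hta9hta11 AP1 passed 1.14 CPM in 1 library, and in Col-0 in 0. Its call in hta9hta11 therefore also depended on the fit of all genotypes. With library totals no member was called for the interaction with arp6, with DESeq2 also 0, and with no filter or the assumed coefficient of variation 1 each, against 2. With the assumed coefficient of variation, 0 members were called for adding atchz1ab to hta9hta11 and 0 for the interaction with hta9hta11. Under it the genes called were 637 in atchz1ab, 640 in hta9hta11, 766 in atchz1ab hta9hta11, 5566 in atchz1ab arp6, 5277 between arp6 and hta9hta11, 119 and 839 on adding atchz1ab to hta9hta11 and to arp6, and 276 and 693 for the interactions with hta9hta11 and arp6. The counts without it were 2211, 2124, 2177, 8675, 8449, 330, 2768, 1352 and 2597. DESeq2 called 197 genes on adding atchz1ab to hta9hta11. The cause of these differences was not tested.

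Estimates near 0 changed sign. SVP between arp6 and atchz1ab arp6 was -0.0017 with RLE, -0.0046 with no filter, -0.0018 with DESeq2 and 0.0000 with the assumed coefficient of variation, and the SVP interaction with arp6 was 0.025 with library totals. On leaving out 1 library, members called ranged from 1 to 2 in atchz1ab, 3 to 4 in hta9hta11, 0 to 2 on adding atchz1ab to hta9hta11, 5 to 6 between arp6 and hta9hta11, 0 to 1 for the interaction with hta9hta11 and 0 to 2 for that with arp6. They stayed at 7 in arp6 and in atchz1ab arp6, 4 in atchz1ab hta9hta11 and 3 on adding atchz1ab to arp6. Genes called on adding atchz1ab to hta9hta11 ranged from 219 to 249. Ranges that crossed 0 were SEP3 in atchz1ab (-0.0523 to 0.5008), AGL24 in atchz1ab hta9hta11 (-0.1468 to 0.0144), AP1 on adding atchz1ab to hta9hta11 (-0.4547 to 0.0583), and on adding it to arp6 FT (-0.3187 to 0.0387), AP1 (-0.186 to 0.0074) and SVP (-0.0458 to 0.0637). The interaction with hta9hta11 crossed 0 for SEP3 (-0.3849 to 0.1682) and AGL24 (-0.3029 to 0.0238), and that with arp6 for SVP (-0.0727 to 0.0369). None of these was called. Depth limits TSF, LFY, AP1 and CAL, which had at most 17 counts in any library.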
